A study of Mus musculus with 12 samples.

Results

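Primary granule genes encode the proteins that fill the azurophil granules of neutrophils. The 5 genes examined here under that name were Mpo, Elane, Prtn3, Ctsg and Ms4a3, of which Ms4a3 encodes a membrane protein. Their members in the data were all open chromatin regions of the deposited table that overlapped the body of 1 of these genes (GENCODE M21 basic annotation, GRCm38) extended by 20 kb on either side. This rule used position alone and found 52 of the 121336 regions. The windows of Elane and Prtn3 overlap on chromosome 10 and together held 20 regions, of which 15 lay in both, and the windows of Mpo, Ctsg and Ms4a3 held 10, 11 and 11. The nearest protein-coding start site was that of 1 of the 5 genes for 27 regions and that of a neighbour (among them Ptbp1, Plppr3, Cfd, Med16, Tspoap1, Lpo, Mcpt8, Gzme, Ms4a2 and Oosp2) for 25.

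Accessibility was measured by ATAC-seq, in which a transposase cuts DNA that is not packed away, in cells sorted from bone marrow of wild-type (WT) mice and of mice that lack the upstream regulatory element of Spi1 (UREd/d, called URE). Spi1 encodes the transcription factor PU.1, and loss of this enhancer lowers its level. WT-LSK and WT-GMP, and likewise URE-LSK and URE-GMP, had 3 libraries each. The methods count mice as the replicates. LSK are Lin- Sca-1+ c-Kit+ cells, which hold stem and multipotent progenitor cells, and GMP are Lin- Sca-1- c-Kit+ CD16/32+ granulocyte-monocyte progenitors. All mice were young adult littermates on a C57BL/6 background, the element is missing from every cell of the URE animals, and they were studied before leukaemia developed.

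Primary granule proteins are made at the promyelocyte stage, and transcription of their genes begins in granulocyte-monocyte progenitors. Mpo encodes myeloperoxidase, which makes hypochlorous acid from hydrogen peroxide, and Elane, Prtn3 and Ctsg encode the serine proteases neutrophil elastase, proteinase 3 and cathepsin G. Ms4a3 encodes a membrane protein of the MS4A family that is used as a marker of granulocyte-monocyte progenitors and their descendants. PU.1, C/EBP factors, RUNX1 and MYB are textbook regulators of these genes.

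The sequences shown first are the 250 bases directly before the first annotated start site of each gene, which lie in or beside its start-site region. Each is printed 5′ to 3′ on the strand of the gene, from the GRCm38 genome, and capitals mark GAGGAA, the core of the PU.1 motif, on either strand.
Mpo, chr11:87793331-87793580, + strand: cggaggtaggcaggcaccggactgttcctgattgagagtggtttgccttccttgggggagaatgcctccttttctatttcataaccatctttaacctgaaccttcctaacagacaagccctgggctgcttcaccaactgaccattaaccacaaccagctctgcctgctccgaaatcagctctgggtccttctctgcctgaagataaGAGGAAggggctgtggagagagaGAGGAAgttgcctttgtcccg
Elane, chr10:79885997-79886246, + strand: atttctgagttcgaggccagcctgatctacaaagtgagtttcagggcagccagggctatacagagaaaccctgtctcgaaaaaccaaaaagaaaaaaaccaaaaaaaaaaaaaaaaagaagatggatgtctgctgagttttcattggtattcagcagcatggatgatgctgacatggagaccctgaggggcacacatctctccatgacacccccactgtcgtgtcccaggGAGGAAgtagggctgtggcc
Prtn3, chr10:79879364-79879613, + strand: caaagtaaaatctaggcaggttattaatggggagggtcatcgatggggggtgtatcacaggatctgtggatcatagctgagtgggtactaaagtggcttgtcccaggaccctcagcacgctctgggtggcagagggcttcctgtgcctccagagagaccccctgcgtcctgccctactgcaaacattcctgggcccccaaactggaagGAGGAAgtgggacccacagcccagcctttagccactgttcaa
Ctsg, chr14:56102575-56102824, - strand: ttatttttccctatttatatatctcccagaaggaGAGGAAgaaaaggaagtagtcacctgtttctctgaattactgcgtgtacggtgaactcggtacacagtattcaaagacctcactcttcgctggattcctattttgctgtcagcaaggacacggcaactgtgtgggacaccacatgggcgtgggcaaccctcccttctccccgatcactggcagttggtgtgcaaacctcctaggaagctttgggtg
Ms4a3, chr19:11640835-11641084, - strand: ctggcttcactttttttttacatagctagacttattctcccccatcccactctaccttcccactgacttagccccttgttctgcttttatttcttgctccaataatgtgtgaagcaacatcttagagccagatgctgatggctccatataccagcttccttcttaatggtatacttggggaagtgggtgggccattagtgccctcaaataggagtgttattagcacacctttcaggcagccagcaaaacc
The full 8-letter PU.1 motif GAGGAAGT stood at -21 to -14 before the Mpo start, at -20 to -13 before Elane and at -42 to -35 before Prtn3, counted back from -1 at the base before the start. The Ctsg stretch held only the core, at -216 to -211, and the Ms4a3 stretch held neither form. Of the other motifs searched on both strands, the RUNX motif AACCACA matched once, before Mpo at -105 to -99. The MYB motif CAACNG matched once before Mpo and at a pair of positions before Ctsg (-93 to -88 and -36 to -31), and the C/EBP motif TTGCNNAA matched none of the 5 stretches. Of 32851 RefSeq promoters of GRCm38.p6, 300 bases each, 3.20% held GAGGAAGT, 28.3% the core, 10.8% the C/EBP motif, 5.27% the RUNX motif and 35.0% the MYB motif. In that table, whose start sites differ from those used here, the promoters of Mpo, Elane and Prtn3 also held GAGGAAGT and those of Ctsg and Ms4a3 did not. The other matches depended on the window: there the Ms4a3 promoter held 1 PU.1 core and 1 C/EBP motif, that of Mpo held no RUNX or MYB motif, and those of Elane and Prtn3 held 1 MYB motif each.

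Library totals ran from 23072701 to 62204826 counts over the 121336 regions, so that 3 counts corresponded to 0.0520 to 0.126 CPM (counts scaled to a common library size). Values below are CPM in replicates 1, 2 and 3, and differences are log2 fold changes from edgeR's quasi-likelihood model fitted to all regions, with standard errors (SE) and Benjamini-Hochberg adjusted p. Calls required an adjusted p below 0.05 together with a log2 fold change above 1 or below -1. URE-LSK replicate 3 stood apart from the other URE-LSK libraries at many of these regions. Its summed CPM in the Mpo window was 82.2 against 42.2 and 40.0 in replicates 1 and 2, and in the Ctsg window 85.7 against 58.4 and 49.6, while in the Elane and Prtn3 window it was 353 against 360 and 346. For the results that it moved most, the value without it is given beside them. The library was singled out by its values at these same regions. Adjusted p and calls without it are therefore not independent tests and only describe how far it moves the results.

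The start-site regions of all 5 genes opened strongly between LSK and GMP in both genotypes. The Mpo start-site region, chr11:87793172-87795464, covers the start and the first part of the gene and read 18.2, 16.3 and 20.7 CPM in the WT and 9.92, 9.91 and 21.9 in the URE libraries of LSK, and 116, 101 and 103 (WT) and 143, 133 and 159 (URE) in GMP. The GMP libraries lay above all LSK libraries, and the URE-LSK libraries lay on both sides of the WT-LSK libraries, with replicate 3 above them. GMP exceeded LSK by a log2 fold change of 2.53 (SE 0.22, adjusted p = 3.25e-07) in WT and of 3.37 (SE 0.23, adjusted p = 9.74e-09) in URE.

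The genotype difference at the Mpo start did not pass the test in either cell type. It was -0.40 (SE 0.22, adjusted p = 0.127) in LSK and 0.44 (SE 0.21, adjusted p = 0.0722) in GMP, where the 3 URE libraries lay above the 3 WT libraries. Without URE-LSK replicate 3 the difference in LSK was -0.90 (adjusted p = 1.07e-05), still short of the fold threshold. The difference between the genotype effects of the 2 cell types, GMP minus LSK, was 0.85 (SE 0.30, adjusted p = 0.0645), and without that library it was called at 1.34 (adjusted p = 5.39e-05).

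The Elane start-site region, chr10:79886014-79886520, read 1.18, 1.51 and 1.09 CPM in WT-LSK and 0.833, 0.754 and 1.60 in URE-LSK, so the LSK groups overlapped through URE-LSK replicate 3 alone. The difference in LSK was -0.20 (adjusted p = 0.543), and without that library it was -0.63 (adjusted p = 0.0370), short of the fold threshold. In GMP it read 12.5, 16.9 and 12.3 in WT and 23.5, 23.2 and 25.0 in URE, with all URE libraries above all WT libraries. The step from LSK to GMP was 3.49 (SE 0.24, adjusted p = 7.22e-08) in WT and 4.46 (SE 0.25, adjusted p = 3.28e-09) in URE. URE-GMP exceeded WT-GMP by 0.78 (SE 0.20, adjusted p = 0.00375), a difference that passed the p threshold but not the fold threshold, and that was called at 1.10 when counts were corrected for GC content.

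At Prtn3, which lies next to Elane, the genotype difference took another form. Its start-site region, chr10:79879167-79880067, read 2.62, 3.18 and 2.86 CPM in WT-LSK and 1.38, 1.81 and 1.56 in URE-LSK, without overlap. In GMP the values were 19.1, 16.2 and 12.2 in WT and 14.8, 15.1 and 12.2 in URE, which overlapped. URE differed from WT by -0.86 (SE 0.20, adjusted p = 0.00171) in LSK, below the fold threshold, and in GMP the difference was -0.17 (SE 0.17, adjusted p = 0.406). The step was 2.46 (SE 0.19) in WT and 3.15 (SE 0.20) in URE.

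Ctsg was the 1 gene of the 5 whose start-site region was called between genotypes, and it was higher in URE in both cell types. The region, chr14:56100456-56102848, spans most of the gene and read 3.86, 3.02 and 3.08 CPM in WT-LSK against 9.47, 8.96 and 19.5 in URE-LSK. In GMP it read 58.4, 44.9 and 42.0 in WT against 108, 105 and 101 in URE. Neither pair of groups overlapped.

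The Ctsg difference was 1.93 (SE 0.25, adjusted p = 5.76e-06) in LSK, 3.82-fold, and 1.12 (SE 0.21, adjusted p = 0.000269) in GMP, 2.17-fold. Without URE-LSK replicate 3 it was 1.47 in LSK (adjusted p = 1.39e-06) and still called. The GMP value dropped just under the fold threshold, at 0.99, when libraries were scaled on promoter regions. The step from LSK to GMP was 3.86 (SE 0.25) in WT and 3.04 (SE 0.23) in URE, and the difference between them, -0.81 (SE 0.32), was not called (adjusted p = 0.0954).

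The Ms4a3 start-site region, chr19:11640645-11641165, had the largest step of the 5 in WT. It read 0.446, 0.408 and 0.764 CPM in the WT and 0.428, 0.419 and 0.662 in the URE libraries of LSK, and 15.3, 17.1 and 10.3 (WT) and 11.5, 11.6 and 7.34 (URE) in GMP. Genotypes overlapped in both cell types, with differences of -0.14 (SE 0.35, adjusted p = 0.745) in LSK and -0.49 (SE 0.24, adjusted p = 0.0899) in GMP. In each of the 3 same-numbered GMP pairs URE lay below WT, and with a replicate block the GMP difference did not pass the test either. The step was 4.65 (SE 0.31, adjusted p = 5.29e-08) in WT and 4.31 (SE 0.30, adjusted p = 1.29e-08) in URE.

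**Figure D1:**
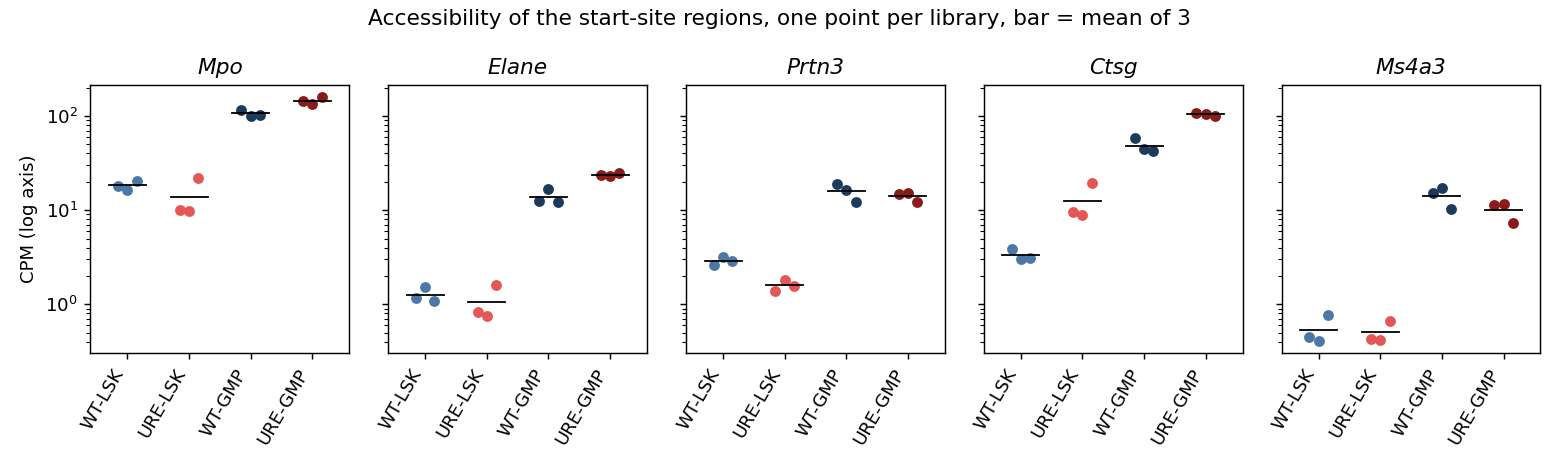
CPM (log axis) of the start-site region of each gene in the 12 libraries, with 1 point per library and a bar at the mean of 3. All GMP points lie above all LSK points in each panel, URE-GMP lies above WT-GMP without overlap for Mpo, Elane and Ctsg, and URE-LSK replicate 3 is the high red point in the URE-LSK columns of Mpo, Elane and Ctsg.

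Ordered by mean level, URE-GMP came first for Mpo (145 ± 12.8 CPM, SD, n = 3), Elane (23.9 ± 0.971) and Ctsg (105 ± 3.64), and WT-GMP came first for Prtn3 (15.9 ± 3.47) and Ms4a3 (14.2 ± 3.55). The lowest group was URE-LSK for every gene but Ctsg, where it was WT-LSK. Neighbours in this order whose libraries overlapped were the LSK groups of Mpo, Elane and Ms4a3 and the GMP groups of Prtn3 and Ms4a3. Per kb of region, the WT-GMP level was 46.5 CPM for Mpo, 27.4 for Elane, 27.3 for Ms4a3, 20.2 for Ctsg and 17.6 for Prtn3, and in URE-GMP it was 63.2 for Mpo, 47.1 for Elane, 43.8 for Ctsg, 19.5 for Ms4a3 and 15.6 for Prtn3.

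Across all 52 regions, the step from LSK to GMP was called for 33 in WT, 29 higher in GMP and 4 lower, against 21% of all regions called higher and 16.8% called lower. The median log2 fold change of the members was 1.22, beside -0.01 over all regions. In URE, 41 were called, 35 higher and 6 lower (all regions 27.6% and 21.6%), with a median of 2.01 beside 0.03. Of the 29 regions that rose in WT, 27 also rose in URE and 2 were not called there, and 8 more rose in URE only by the call. Of these 8, 4 were also called by the interaction of genotype and cell type described below, and for the other 4 a difference between the steps of the genotypes was not called. Joint shares of the 2 steps over all regions were not counted.

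The regions whose nearest start site was that of a granule gene rose together. Of these 27, 22 rose and none fell in WT, with a median of 2.58. Of the 25 regions nearer to a neighbouring gene, 7 rose and 4 fell, with a median of 0.18. The 4 that fell were the Ptbp1 intron region chr10:79858433-79858697 (-1.01), the Mcpt8 region chr14:56082036-56082499 (-1.42), and chr19:11614148-11614407 (-1.24) and chr19:11614917-11615162 (-1.87) beyond the 3′ end of the neighbouring Ms4a2.

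The highest CPM of the set in URE-GMP stood at the 3′ end of Mpo. Region chr11:87800926-87808922 runs over the last exons of Mpo into the adjacent Lpo, the gene of lactoperoxidase, and is wide, so its CPM cannot be set beside those of shorter regions. It read 17.8, 13.4 and 12.1 CPM in the WT and 16.5, 12.1 and 35.3 in the URE libraries of LSK, and 238, 181 and 166 (WT) and 336, 313 and 371 (URE) in GMP. All URE-GMP libraries lay above all WT-GMP libraries, and the difference of 0.80 (SE 0.26, adjusted p = 0.0132) passed the p threshold but not the fold threshold. In LSK the difference was 0.57 (SE 0.27, adjusted p = 0.0890), and without URE-LSK replicate 3 it was -0.0093.

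The Mpo gene body between start and end behaved alike. Region chr11:87795574-87797727 had the smallest p among the Mpo regions that rose from LSK to GMP in WT, at 3.99 (SE 0.28, adjusted p = 7.42e-08), from 2.81, 1.55 and 2.13 CPM to 48.4, 32.1 and 25.0. In URE-GMP it read 52.7, 48.8 and 56.5, a genotype difference of 0.59 (SE 0.23, adjusted p = 0.0371). Its neighbour chr11:87798477-87800739 differed by 0.71 (SE 0.26, adjusted p = 0.0281) in GMP. None of the 4 regions from the Mpo start to the end of the gene was called between genotypes. In each the 3 URE-GMP libraries lay above the 3 WT-GMP libraries, but the share of all regions without overlap was not counted. By adjusted p alone, without a fold threshold, 35940 of the 121336 regions were higher in URE-GMP. After GC correction chr11:87798477-87800739 (1.09) and the region at the 3′ end (1.13) were called higher in GMP.

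Between genotypes in LSK, 22 of the 52 regions were called, 10 higher in URE and 12 lower, against 13.6% of all regions higher and 23.9% lower. In GMP 21 were called, 11 higher and 10 lower, beside 15.6% and 24.1% of all regions. Member medians were -0.16 in LSK and 0.31 in GMP, against 0.14 and 0.06 over all regions. As shares of the 52, the calls in LSK were 19.2% higher and 23.1% lower and those in GMP 21.2% and 19.2%, of the same order as the background. The split in GMP depended on the scaling: it was 15 higher and 6 lower after correction for GC content, 12 and 6 with loess offsets, 7 and 10 with library size alone and 6 and 10 with scaling on promoter regions. In LSK it was 13 and 8 with loess offsets.

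The 4 windows differed in direction. In the Ctsg window 8 of 11 regions gained and none lost accessibility in URE-LSK, and in GMP 8 gained and 1 lost it. In the Ms4a3 window none of 11 was called higher, and 7 were lower in LSK and the same 7 in GMP. The Elane and Prtn3 window had 2 of 20 higher and 2 lower in LSK, with 2 higher and none lower in GMP, and the Mpo window had 3 of 10 lower in LSK, with 2 lower and 1 higher in GMP. In the Ctsg window 4 of the 8 GMP gains fell under the fold threshold with scaling on promoter regions, and in the Ms4a3 window 3 of the 7 losses were called with loess offsets in each cell type, with no change of sign, while chr19:11640252-11640493 was called higher in LSK at 2.53 (1.04, not called, with TMM scaling). Of all 52, 9 were called higher in both cell types, 9 lower in both, and none in opposite directions. Joint shares over all regions were not counted, so this agreement cannot be called particular to these loci.

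**Figure D2:**
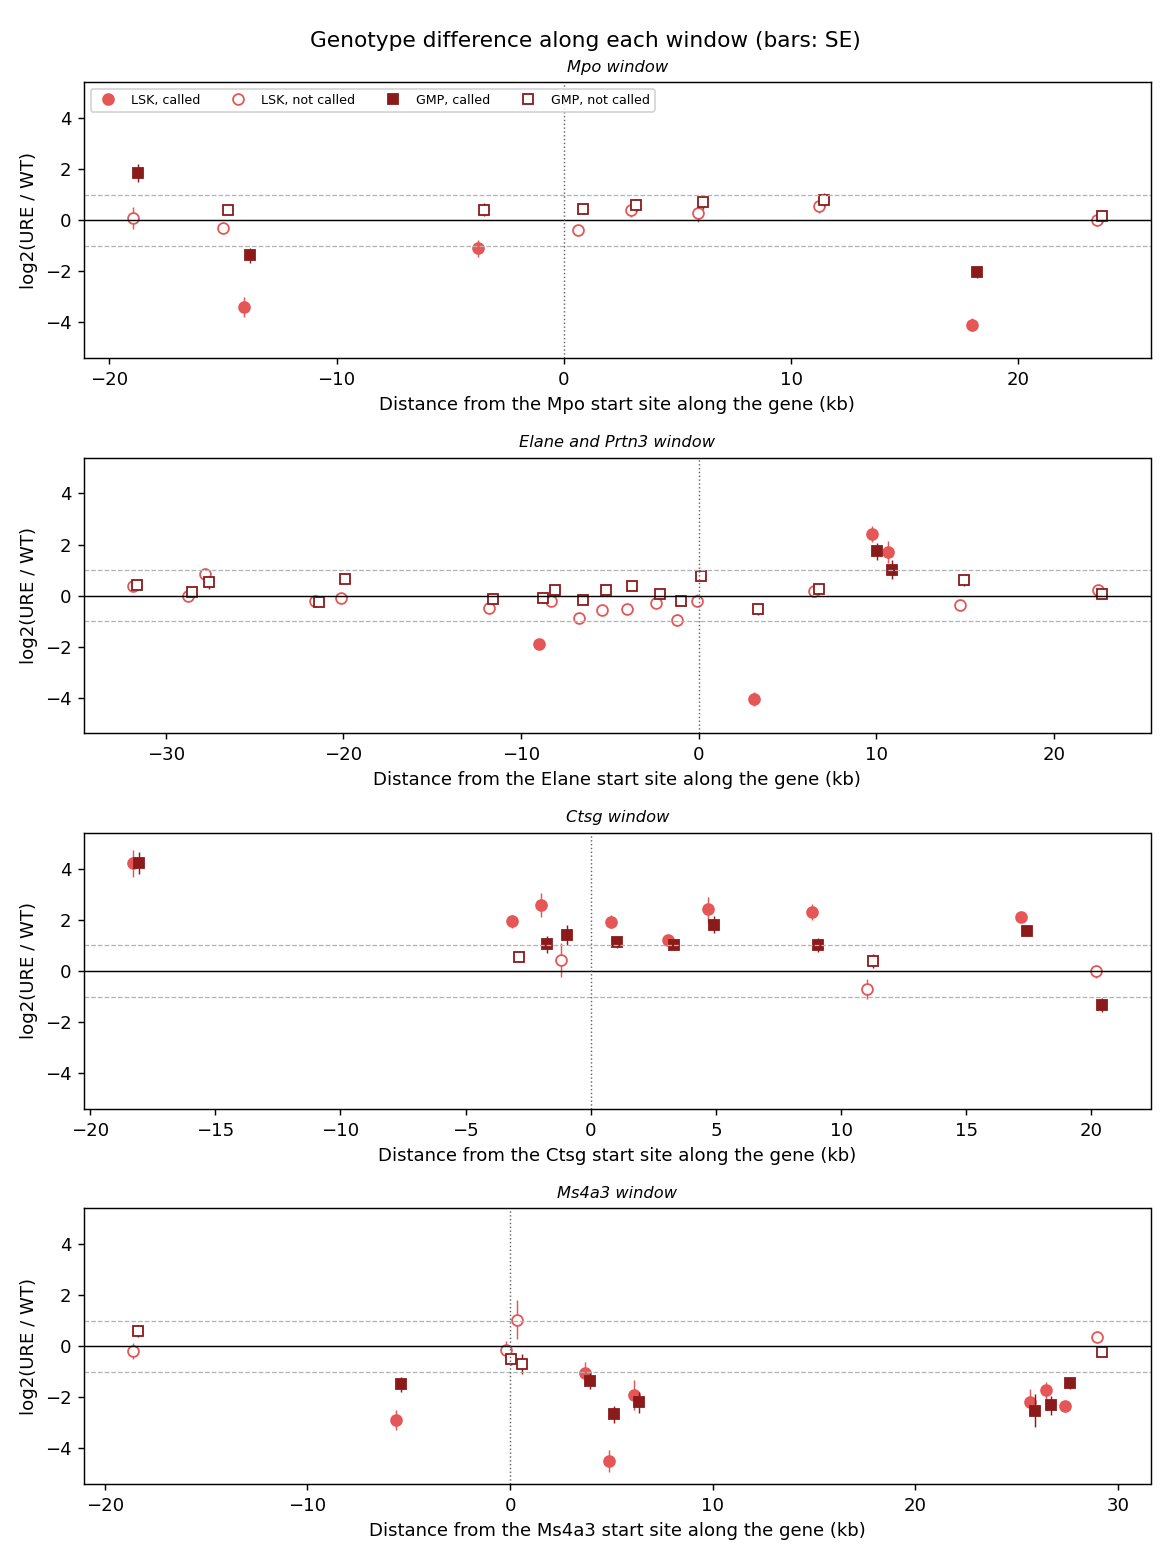
log2(URE / WT) of each region (vertical axis, bars SE) in LSK (circles) and GMP (squares) against the distance of its centre from the start site, along the direction of the gene (kb), for the 4 windows; filled symbols were called. Filled symbols lie above 0 for most Ctsg regions and below 0 for 7 Ms4a3 regions, and the start sites of Mpo, Elane, Prtn3 and Ms4a3 (at 0, and at -6.6 kb for Prtn3) carry open symbols.

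In the Mpo window the largest loss lay far downstream of the gene, in an intron of Lpo. Region chr11:87811464-87811848 read 10.6, 12.1 and 10.3 CPM in WT-LSK and 0.761, 0.726 and 0.449 in URE-LSK, a difference of -4.10 (SE 0.26, adjusted p = 7.21e-09). In GMP it read 8.24, 12.9 and 11.7 in WT and 2.60, 3.28 and 2.13 in URE, a difference of -2.03 (SE 0.22, adjusted p = 1.57e-06). The groups were far apart in both cell types. The loss in LSK exceeded that in GMP by an interaction of 2.06 (SE 0.33, adjusted p = 0.000676), and the step in WT was 0.00 (SE 0.21, adjusted p = 0.999).

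Its central 300 bases are shown because this region lost most among the Mpo regions, and they held the PU.1 core at 2 positions (capitals) but not the full motif.
Lpo intron, chr11:87811506-87811805, + strand: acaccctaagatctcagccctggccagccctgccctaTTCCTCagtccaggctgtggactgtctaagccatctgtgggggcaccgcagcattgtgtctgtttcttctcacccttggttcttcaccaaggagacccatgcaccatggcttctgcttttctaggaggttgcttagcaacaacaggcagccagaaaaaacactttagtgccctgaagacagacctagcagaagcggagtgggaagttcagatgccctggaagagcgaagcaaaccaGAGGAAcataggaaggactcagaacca

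A region upstream, chr11:87779457-87779811 in a coding exon of Tspoap1, lost accessibility while it opened with the step. It read 2.55, 3.18 and 3.08 CPM in the WT and 0.309, 0.419 and 0.128 in the URE libraries of LSK, and 13.3, 12.7 and 11.9 (WT) and 4.99, 7.06 and 2.50 (URE) in GMP. URE was lower by a log2 fold change of -3.39 (SE 0.40) in LSK and by -1.37 (SE 0.29) in GMP, with adjusted p = 2.58e-06 and 0.000789. The step was 2.11 (SE 0.31) in WT and 4.13 (SE 0.39) in URE, from a lower start.

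Only 1 Mpo region gained with the genotype, chr11:87774559-87774895, also in a coding exon of Tspoap1. In GMP it read 0.669, 1.01 and 0.668 CPM in the WT and 2.99, 2.50 and 3.13 in the URE libraries, a difference of 1.85 (SE 0.35, adjusted p = 0.000247). In LSK it was low in both genotypes, between 0.214 and 0.653 CPM, and the difference of 0.08 was not called except with loess offsets, which gave 1.31. The intergenic region chr11:87789362-87790517, 3.6 kb before the Mpo start, read 3.18, 2.45 and 3.74 CPM in WT-LSK against 1.14, 0.642 and 2.52 in URE-LSK, a call of -1.10 (SE 0.32, adjusted p = 0.00749) that became -1.81 without URE-LSK replicate 3 and -0.65, not called, after GC correction. In GMP the same region read 46.0, 33.5 and 29.6 in WT and 48.3, 48.9 and 48.0 in URE.

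In the Elane and Prtn3 window none of the 6 regions from the Prtn3 start to the Elane start was called between genotypes. In LSK all but the Elane start lay lower in URE without overlap, by log2 fold changes of -0.29 to -0.95 with adjusted p of 0.00171 to 0.0316. The share of all regions without overlap was not counted. By adjusted p alone, without a fold threshold, 35056 of the 121336 regions were lower in URE-LSK. The lowest of the 6 was chr10:79885002-79885248, at 1.65, 2.28 and 1.95 CPM in WT-LSK and 0.904, 1.20 and 0.940 in URE-LSK, a difference of -0.95 (SE 0.23, adjusted p = 0.00237). It was close to the fold threshold and was called in 9 of 26 settings of the fit (scalings, filters, thresholds and libraries left out), among them library size alone (-1.07). In GMP the 6 differences ran from -0.20 to 0.78, the Elane start being the highest. The most accessible of them, chr10:79883042-79884866 at the Prtn3 end and before Elane, rose from 18.1, 17.5 and 18.4 CPM in WT-LSK to 68.7, 57.4 and 53.1 in WT-GMP (1.73, SE 0.11, adjusted p = 4.06e-08). In URE it rose from 12.7, 15.4 and 16.2 to 64.0, 62.1 and 58.6, and the genotype difference in GMP was 0.04 (SE 0.10, adjusted p = 0.724).

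Past the end of Elane, toward Cfd (complement factor D), the intergenic region chr10:79889217-79889748 was almost closed in URE-LSK and open in URE-GMP. It read 12.4, 9.02 and 11.0 CPM in the WT and 0.357, 1.06 and 0.577 in the URE libraries of LSK, and 9.50, 9.46 and 8.16 (WT) and 6.57, 6.54 and 5.52 (URE) in GMP. The genotype difference was -4.05 (SE 0.28, adjusted p = 1.44e-08) in LSK and -0.54 (SE 0.23, adjusted p = 0.0522) in GMP, and the interaction of 3.51 (SE 0.36, adjusted p = 2.39e-05) was the largest of the 52 regions. In WT the step was -0.26 (SE 0.23, adjusted p = 0.335).

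Its central 300 bases are shown for that reason, and they held no capitals and none of the other motifs.
Between Elane and Cfd, chr10:79889333-79889632, + strand: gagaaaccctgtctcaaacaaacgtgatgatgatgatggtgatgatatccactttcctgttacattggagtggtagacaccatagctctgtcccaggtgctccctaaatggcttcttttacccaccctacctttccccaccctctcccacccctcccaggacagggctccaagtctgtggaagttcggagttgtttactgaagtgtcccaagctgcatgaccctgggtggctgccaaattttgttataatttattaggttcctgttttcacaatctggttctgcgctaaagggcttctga

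A second region of this kind was chr10:79877179-79877562, 2052 bases before the Prtn3 start. It overlapped no basic transcript but lay within the longer gene record of Prtn3. It read 10.6, 14.8 and 13.5 CPM in the WT and 3.35, 3.21 and 3.93 in the URE libraries of LSK, and 22.5, 21.5 and 22.0 (WT) and 20.4, 22.3 and 19.1 (URE) in GMP. URE was lower by a log2 fold change of -1.88 (SE 0.14, adjusted p = 3.57e-08) in LSK and differed by -0.10 (SE 0.13, adjusted p = 0.551) in GMP, with an interaction of 1.79 (SE 0.20, adjusted p = 3.89e-05).

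Both regions of the window that gained lay in Med16, the gene of a Mediator subunit. The region with the smallest p, chr10:79895996-79896273 in an intron, read 0.656, 0.693 and 0.483 CPM in the WT and 3.85, 2.21 and 3.42 in the URE libraries of LSK, and 0.418, 0.357 and 0.346 (WT) and 1.40, 0.815 and 1.50 (URE) in GMP. URE was higher by 2.39 (SE 0.31, adjusted p = 7.75e-06) in LSK and 1.73 (SE 0.34, adjusted p = 0.000373) in GMP. The other, chr10:79896872-79897120, differed by 1.72 in LSK and by 1.01 in GMP, where GC correction left 0.90, not called.

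The gained Med16 intron region is shown whole, as the counterpart of the lost regions, and it held the RUNX motif at 79896131 to 79896137 and the C/EBP motif at 79895998 to 79896005, but no PU.1 core.
Med16 intron, chr10:79895996-79896273, + strand: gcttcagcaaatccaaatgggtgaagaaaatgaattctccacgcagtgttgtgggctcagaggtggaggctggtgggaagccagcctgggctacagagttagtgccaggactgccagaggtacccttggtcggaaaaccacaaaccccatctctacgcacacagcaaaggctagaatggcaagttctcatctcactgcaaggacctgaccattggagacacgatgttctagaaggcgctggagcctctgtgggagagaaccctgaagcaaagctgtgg

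In the Ctsg window the gain extended over most of the stretch around the gene. The intergenic region chr14:56097284-56098257, beyond the 3′ end, read 0.210, 0.163 and 0.261 CPM in the WT and 0.547, 0.782 and 2.16 in the URE libraries of LSK, and 5.82, 4.30 and 3.43 (WT) and 16.9, 13.6 and 16.6 (URE) in GMP. URE was higher by 2.41 (SE 0.49) in LSK, or 1.57 without replicate 3, and by 1.81 (SE 0.33) in GMP. Upstream, chr14:56105017-56106141 read 3.62, 5.22 and 2.45 CPM in WT-LSK and 12.2, 10.0 and 19.9 in URE-LSK, a difference of 1.95 (SE 0.25, adjusted p = 5.93e-06), and in GMP the difference was 0.56 (SE 0.22, adjusted p = 0.0342), below the fold threshold.

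The start sites of 2 neighbouring protease genes changed in the same direction as Ctsg. The start-site region of Mcpt8, a basophil protease gene, chr14:56085012-56085553, read 3.73, 2.08 and 3.52 CPM in the WT and 13.8, 12.3 and 15.4 in the URE libraries of LSK, and 8.03, 7.66 and 8.67 (WT) and 22.9, 21.5 and 27.2 (URE) in GMP. URE exceeded WT by 2.13 (SE 0.19, adjusted p = 1.21e-07) in LSK and by 1.56 (SE 0.18, adjusted p = 2.27e-06) in GMP. The start-site region of Gzme, a granzyme gene, chr14:56120613-56120891, held 5, 2 and 0 counts in WT-LSK and read 1.43, 0.949 and 1.32 CPM in URE-LSK, with 0.251, 0.126 and 0.138 (WT) and 2.91, 2.78 and 3.54 (URE) in GMP. Its fitted differences of 4.22 (SE 0.53) and 4.24 (SE 0.44) rest on these few WT counts.

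The exception in the window was chr14:56082036-56082499, over the 3′ part of Mcpt8, which read 5.38, 4.85 and 3.82 CPM in WT-LSK and 5.26, 4.38 and 4.19 in URE-LSK. In GMP it read 1.76, 1.13 and 2.37 in WT and 0.581, 0.694 and 0.824 in URE, a difference of -1.32 (SE 0.28, adjusted p = 0.000716) that fell to -0.79, not called, after GC correction. It was also the Ctsg region that closed with the step, by -1.42 in WT.

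In the Ms4a3 window the loss lay within and around the gene but not at its start. Region chr19:11635676-11635982, over a coding exon, read 3.20, 3.79 and 5.27 CPM in WT-LSK and 0.0714, 0.391 and 0.107 in URE-LSK, a difference of -4.49 (SE 0.43, adjusted p = 3.15e-07). In GMP it read 6.74, 5.83 and 6.15 in WT and 1.08, 1.27 and 0.557 in URE, a difference of -2.67 (SE 0.34, adjusted p = 7.38e-06). Of the URE-LSK libraries, 1 lay near the level of 3 counts, so the fitted fold in LSK is imprecise.

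Intron regions of Ms4a3 on either side, chr19:11634431-11634729 and chr19:11636779-11637249, were lower in URE-GMP by a log2 fold change of -2.19 (SE 0.41) and -1.36 (SE 0.31). With loess offsets these GMP differences were -0.70 and -0.60, neither called. In LSK the call on chr19:11636779-11637249 was marginal, at -1.03 (SE 0.42, adjusted p = 0.0480), and was kept in 13 of 25 settings. Both also opened with the step in WT, by 2.58 and 2.82. Farther on, beyond Ms4a2, chr19:11613126-11613565 read 6.51, 6.93 and 8.45 CPM in the WT and 1.26, 1.70 and 1.35 in the URE libraries of LSK, and 4.64, 2.98 and 4.52 (WT) and 1.70, 1.25 and 1.53 (URE) in GMP, differences of -2.35 (SE 0.23) and -1.43 (SE 0.22). With GC correction the GMP values of this region and of chr19:11636779-11637249 were -0.80 and -0.89, not called.

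Region chr19:11646238-11646452, 5.5 kb before the Ms4a3 start, is shown whole because it was the 1 region of the set with the full PU.1 motif that was called lower in both cell types. It read 0.813, 0.979 and 1.29 CPM in the WT and 0.0952, 0.223 and 0.107 in the URE libraries of LSK, and 2.30, 2.10 and 2.07 (WT) and 0.947, 0.746 and 0.606 (URE) in GMP. URE differed from WT by -2.88 (SE 0.39, adjusted p = 9.99e-06) in LSK and by -1.48 (SE 0.30, adjusted p = 0.000465) in GMP, and the GMP value was just short of the fold threshold after GC correction and -0.32 with loess offsets. The motif stands on the other strand, so its core reads ttcctc here.
Upstream of Ms4a3, chr19:11646238-11646452, + strand: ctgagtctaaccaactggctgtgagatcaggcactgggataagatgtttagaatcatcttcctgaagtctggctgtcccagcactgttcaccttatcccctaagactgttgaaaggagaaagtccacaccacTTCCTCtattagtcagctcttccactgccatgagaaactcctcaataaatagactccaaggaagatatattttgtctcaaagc

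The region farthest upstream, chr19:11659135-11659545 in an intron of Oosp2, also held the full motif but was not lost. It read 0.866, 0.979 and 1.17 CPM in the WT and 0.571, 0.502 and 1.54 in the URE libraries of LSK, and 13.7, 14.5 and 11.8 (WT) and 19.9, 20.5 and 20.3 (URE) in GMP. The GMP difference of 0.60 (SE 0.24, adjusted p = 0.0406) passed the p threshold only, and was called at 1.13 after GC correction. In LSK the difference was -0.18 (SE 0.32, adjusted p = 0.642), or -0.91 (adjusted p = 0.00431) without URE-LSK replicate 3.

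**Figure D3:**
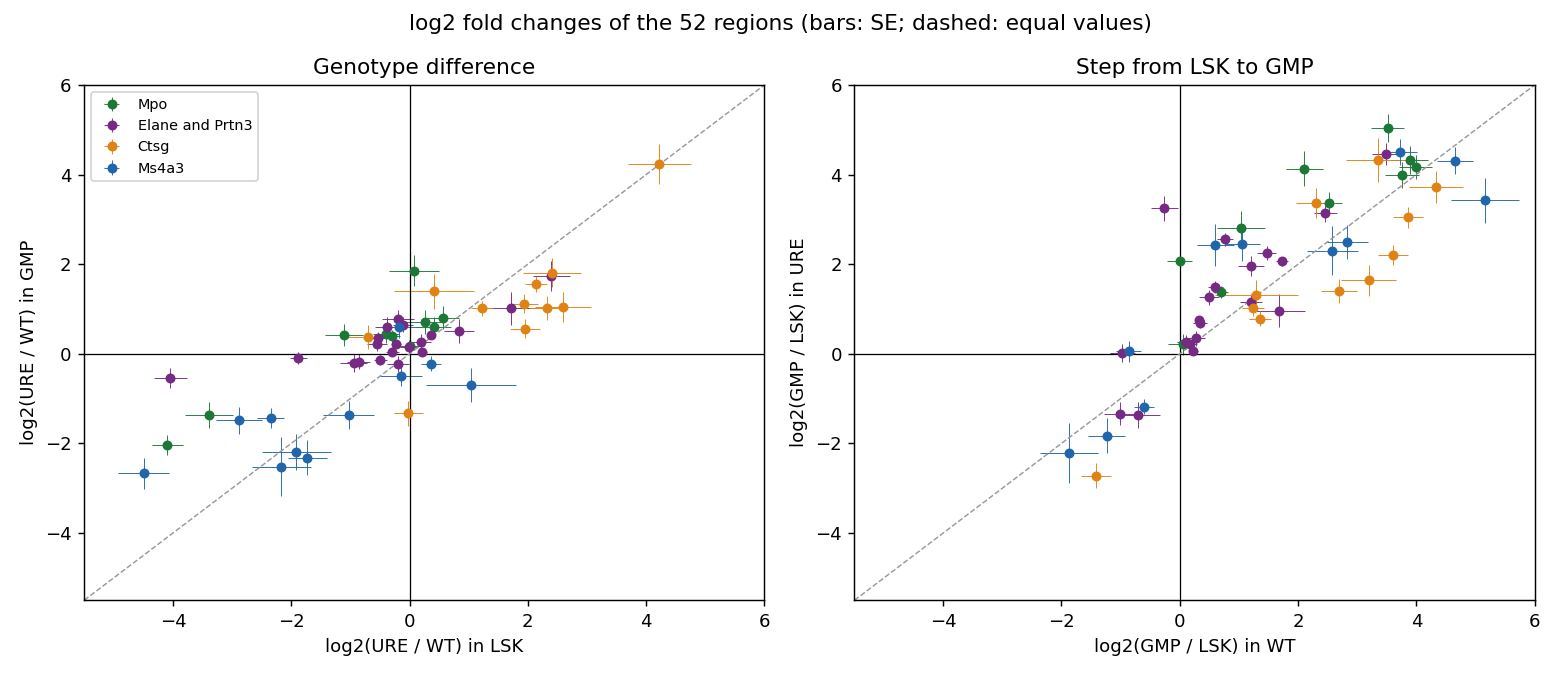
Left, log2(URE / WT) of the 52 regions in GMP (vertical) against LSK (horizontal), and right, log2(GMP / LSK) in URE (vertical) against WT (horizontal), coloured by window, with bars for SE and a dashed line of equal values. On the left, Ctsg regions lie mostly to the upper right and Ms4a3 regions to the lower left, and on the right most points lie above 0 on both axes.

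The interaction of genotype and cell type called 10 of the 52 regions, 7 with a higher genotype effect in GMP than in LSK and 3 with a lower one, beside 8.96% and 5.03% of all regions. The 7 were 4 of the Mpo window, 2 of the Elane and Prtn3 window and 1 of the Ms4a3 window, and the 3 lay in the Ctsg window. No start-site region of the 5 genes was among them with all libraries. Without URE-LSK replicate 3 the start-site regions of Mpo (1.34) and Elane (1.41, adjusted p = 0.00410) were called, as were chr11:87798477-87800739 (1.17) and the Oosp2 intron region (1.51). That library was picked by its values at the member regions, so these added calls are not independent support. Of the 10 calls, 5 held whichever single library was left out and 5 were lost without at least 1 library, and without URE-LSK replicate 1 the count was 6.

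**Figure D4:**
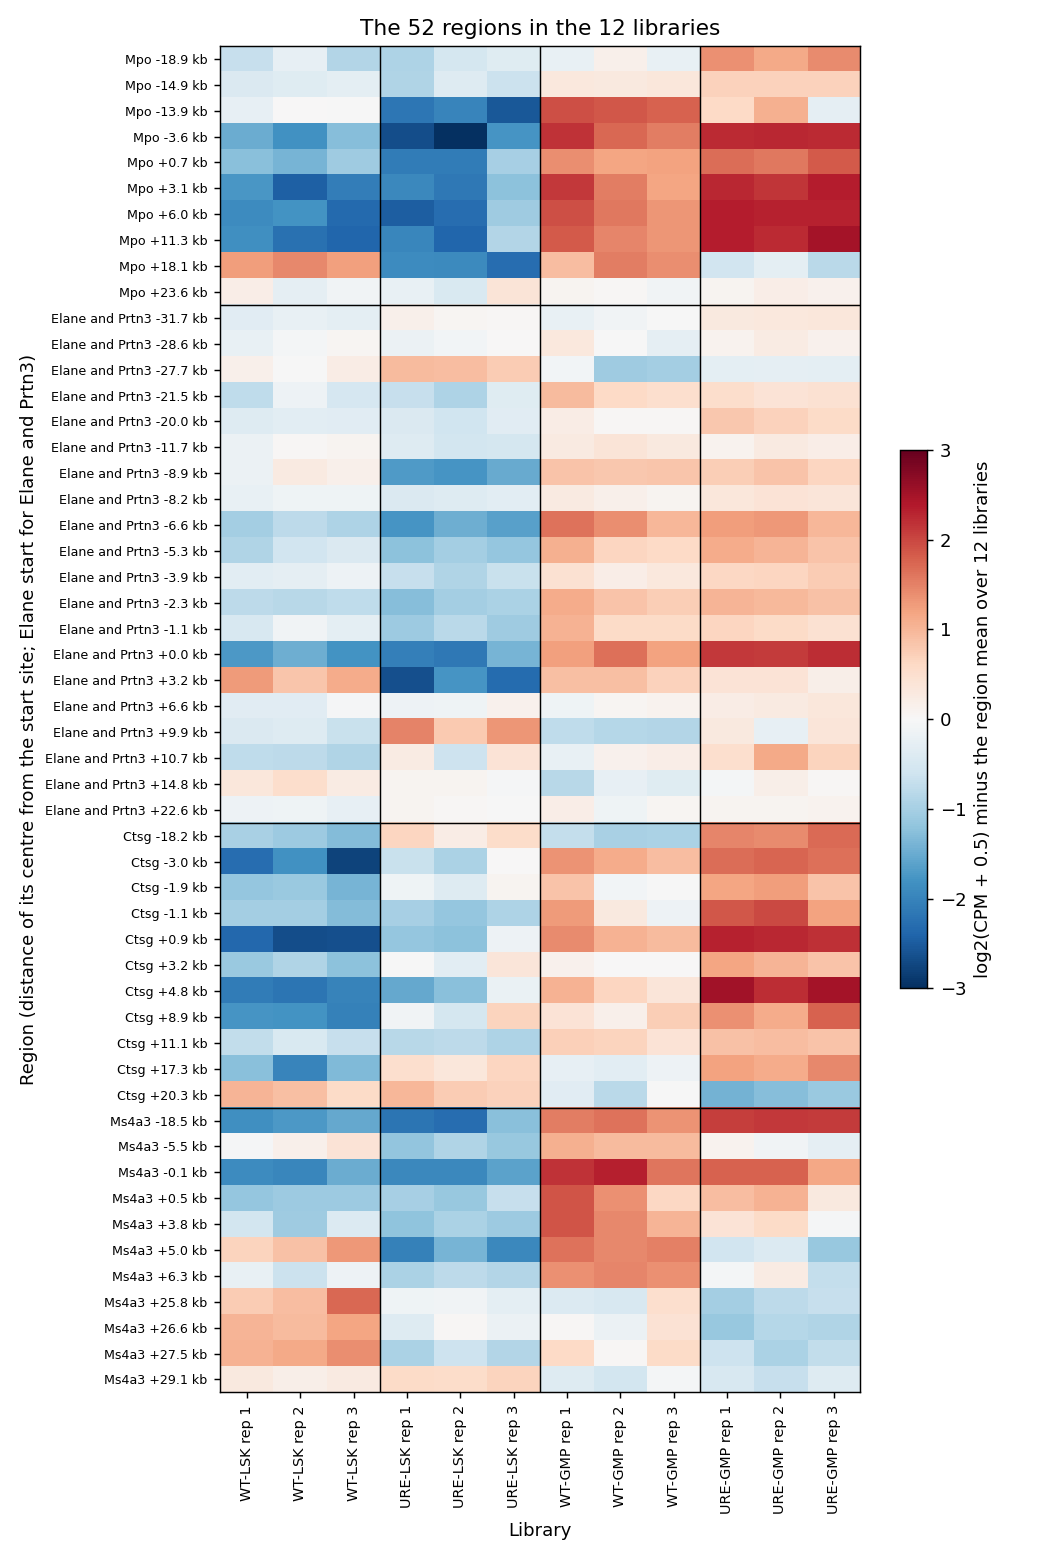
log2(CPM + 0.5) of the 52 regions (rows, by window and by distance from the start site in kb) in the 12 libraries (columns), minus the mean of each region, so that red is above and blue below that mean. GMP columns are red for most rows near the gene starts, URE-LSK replicate 3 is paler than its group at the Mpo rows from -3.6 to +11.3 kb, and the Ms4a3 rows from +3.8 to +27.5 kb are bluer in URE than in WT.

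The PU.1 motif GAGGAAGT occurred in 8 of the 52 regions (15.4%), beside 10.5% of all regions, which are shorter (median length 322 bases against 467.5), so the shares are not matched for length. Per kb of region the members held fewer matches of this motif than all regions, 0.182 against 0.258. The core occurred in 29 members (55.8%, all regions 46.9%), the C/EBP motif in 12 (23.1%, all 20.5%), the RUNX motif in 16 (30.8%, all 17.3%) and the MYB motif in 34 (65.4%, all 46.5%). Per kb the core (1.27 against 1.61), the C/EBP motif (0.387 against 0.559) and the MYB motif (1.57 against 1.64) were also less frequent in the members, and the RUNX motif was more frequent (0.523 against 0.455). Of the 8 regions with GAGGAAGT, 1 was higher and 1 lower in URE-LSK and 1 was higher and 2 lower in URE-GMP, and 7 of the 8 rose and 1 fell with the step in WT. Of the 12 with the C/EBP motif, 10 rose with the step in WT and none fell. Regions with the other motifs mostly rose as well. These were 11 of 16 with the RUNX motif (none fell), 18 of 29 with the core (1 fell) and 20 of 34 with the MYB motif (2 fell). Of all 52 members 29 rose and 4 fell, and whether any motif goes with the step was not tested. The 3 regions that lost most in URE-LSK, in the Lpo intron, beyond Elane and in the Ms4a3 exon, held no full PU.1 motif.

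Genes of 8 other azurophil granule or lysosomal proteins (Prss57, Ctsc, Srgn, Serpinb1a, Cd63, Lyz2, Bpi and Gusb) showed a smaller step, each read at the best-covered region no more than 5 kb from its start. None of the 8 was called between LSK and GMP in WT, and 3 were called higher in URE. The region read for Prss57, 1 of these 3, covers the start site of the neighbouring gene Palm. Bpi, which encodes a protein that binds bacterial lipopolysaccharide, was lower in URE by a log2 fold change of -2.86 in LSK and -2.04 in GMP. Lyz2, the gene of lysozyme, was lower by a log2 fold change of -1.49 in LSK and differed by -0.15 in GMP. The other 6 were not called between genotypes, Cd63 having the largest difference among them, 0.73 in LSK and 0.89 in GMP.

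The 5 other genes whose start-site region followed the mean of the 5 granule start sites most closely over the 12 libraries were Hsd11b1 (Pearson r = 0.997), Il23a (0.993), Ccr2 (0.992), Anxa3 (0.992) and Plg (0.991), of 13579 genes ranked. All points share the split of the 12 libraries into LSK and GMP. Hsd11b1 read 2.34 ± 0.490 (WT) and 2.74 ± 1.42 CPM (URE) in LSK, and 36.8 ± 5.18 (WT) and 55.6 ± 1.34 (URE) in GMP (SD, n = 3). Among the 5 genes themselves r was highest between Mpo and Elane (0.986) and lowest between Prtn3 and Ctsg (0.817).

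Markers of other cell types moved with some of these results, at the same distance rule. Of 5 late neutrophil genes (S100a8, S100a9, Ltf, Camp and Ngp), 3 were called higher and none lower in URE-GMP than in WT-GMP, and their summed level was 20.5 to 39.0 CPM for WT and 70.9 to 85.5 for URE. In LSK 2 were higher and 1 lower in URE, and the summed level was 10.1 to 12.9 in WT and 7.11 to 7.75 in URE, replicate 3 being the highest of these at 7.75. Of 3 monocyte genes (Csf1r, Ly86 and Irf8), 1 was lower in URE in each cell type, with sums of 83.4 to 95.1 (WT) and 49.3 to 63.6 (URE) in GMP. Of 4 basophil and mast cell genes, Prss34 and Ms4a2 had no region, and the sum of Cpa3 and Mcpt8 was 7.38 to 11.4 (WT) and 23.8 to 30.6 (URE) in LSK and 9.90 to 13.1 (WT) and 24.8 to 34.5 (URE) in GMP, Mcpt8 being itself in the Ctsg window. Replicate 3 had the highest sum of Cpa3 and Mcpt8 in every group, at 30.6 in URE-LSK. The part of these marker shifts in the granule gene results was not tested, and in bulk samples fewer cells of a type cannot be told apart from less accessibility per cell.

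Of 6 stem and multipotent cell genes (Ly6a, which had no region, Hlf, Meis1, Mecom, Procr and Flt3) none was called between genotypes. Some passed the p threshold but not the fold threshold. In GMP, Meis1 (-0.92) and Flt3 (-0.42) were lower and Mecom (0.32) higher in URE. In LSK, Hlf (0.41), Mecom (0.25) and Procr (0.50) were higher in URE. The sums over the list were 246 to 265 CPM in WT-LSK and 254 to 295 in URE-LSK, where replicate 3 was the lowest. In GMP they were 183 to 210 for WT and 191.5 to 202 for URE. Both eosinophil genes (Epx and Prg2) were lower in URE-LSK, with sums of 2.24 to 3.44 in WT and 0.748 to 1.12 in URE. In GMP Prg2 was lower by a log2 fold change of -1.58 and Epx, at -0.89, was not called, with sums of 2.34 to 3.21 in WT and 0.848 to 1.30 in URE. Of the erythroid genes Klf1 and Gata1, Gata1 was lower in URE in both cell types, by a log2 fold change of -2.54 in each. Klf1 went the other way, at 0.33 in LSK and 0.21 in GMP, and was not called. The erythroid sums were 42.2 to 45.2 CPM (WT) and 49.9 to 52.7 (URE) in LSK. In GMP the erythroid sums were 50.8 to 52.9 (WT) and 53.1 to 53.5 (URE). The region read for the B cell gene Cd79a, which lies nearest to the start of Arhgef1, was lower in URE by -1.76 in LSK and -2.01 in GMP, while the B cell gene Pax5 and the T cell gene Cd3e had no region and the T cell gene Cd3d was not called.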

How the data were processed

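ATAC-seq (OmniATAC) libraries of sorted LSK and GMP from 12 samples were used, grouped by the cell type and genotype in their labels. The authors deposited raw, not normalized, whole-number counts for each open region in each library. Alignment to GRCm38 used Bowtie2, duplicate reads were dropped, and Genrich called the peaks of each group. The submitters' processing notes also name cutadapt, bedtools and featureCounts. Regions called per group favour those open in at least 1 group, and whether reads or fragments were counted is not given in the sources used here. Table starts were taken as counted from 0 and are given from 1. All 12 columns were used.

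Annotation came from GENCODE M21, and promoter motifs counted in RefSeq sequences of GRCm38.p6. The filter filterByExpr removed none of 121336 regions, so all 52 members passed. TMM scaling and a quasi-likelihood model with 1 coefficient per group over the 12 libraries (edgeR 4.0.16, limma 3.58.1, R 4.3.3) gave 5 two-sided contrasts with BH adjustment over all regions. The biological coefficient of variation was 0.185. Code was tested on simulated data. DESeq2 1.42.0, other scalings (RLE, library size, promoter regions, loess and GC content offsets), filters, thresholds, 2-group fits and leaving out each library were alternatives. Counting limits cover counting error only.

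Named regions were each start-site region, and per window the called region with the smallest p in each direction for both genotype contrasts and the WT step; other regions were chosen after their values were seen, as was the GAGGAA core. Likeness was Pearson's r of log2(CPM + 0.5) among start-site regions with a mean CPM of at least 2. Members, gene lists and tests were chosen with earlier results of these data known. A gene's list region was the one with most counts within 5 kb of its start. One listed marker gene is not reported here. The gene record of Prtn3 starts before its basic transcripts, which brings in 3 regions at Ptbp1.

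Replicate numbers are shared by the groups, but no label says what they mark. Deviations of same-numbered libraries from their group means correlated at 0.150, 0.063 and -0.109 between WT-LSK and URE-LSK, 0.117, 0.236 and 0.422 between WT-GMP and URE-GMP, 0.223, 0.257 and 0.264 between the WT groups and 0.112, 0.319 and 0.172 between the URE groups. The criterion for pairing (all over 0.1) was met except for genotype in LSK.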

Additional observations from a re-analysis of the deposited data

Results flagged for a closer look

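Each result here was singled out because the genotype effect differed between LSK and GMP by the interaction test of edgeR (adjusted p under 0.05 and absolute log2 difference over 1). In the Elane and Prtn3 window the difference, GMP minus LSK, was 3.51 for the region between Elane and Cfd, where URE differed from WT by -4.05 in LSK and -0.54 in GMP, and 1.79 for the region before Prtn3 (-1.88 and -0.10). In the Mpo window it was 2.06 for the Lpo intron region (-4.10 and -2.03), 2.02 for the Tspoap1 exon region that lost (-3.39 and -1.37), 1.77 for the one that gained (0.08 and 1.85) and 1.52 for the region before the Mpo start (-1.10 and 0.42). In the Ms4a3 window it was 1.83 for the coding exon region (-4.49 and -2.67).

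In the Ctsg window the difference was negative in each case. It was -1.30 for the region over the 3′ part of Mcpt8 (-0.02 and -1.32), -1.30 for chr14:56093332-56093927 (2.32 and 1.02) and -1.39 for chr14:56105017-56106141 (1.95 and 0.56). Of these 10 calls, 5 held whichever of the 12 libraries was left out, and the other 5 did not. That on the gained Tspoap1 region was lost without any 1 of 8 libraries (WT-LSK replicates 1 and 2, URE-LSK 1 and 2, WT-GMP 1 and 3, URE-GMP 1 and 3), with values of 1.41 to 1.91 there. That on chr14:56093332-56093927 was also lost without any 1 of 8 (WT-LSK 1, 2 and 3, URE-LSK 3, WT-GMP 1 and 3, URE-GMP 1 and 2), with values of -1.31 to -0.87. The 3′ part of Mcpt8 lost its call without any 1 of 5 (WT-LSK 2 and 3, URE-LSK 1, WT-GMP 3, URE-GMP 1), at -1.28 to -0.91, and the Ms4a3 exon region without any 1 of 5 (WT-LSK 3, URE-LSK 1 and 3, URE-GMP 1 and 2), at 1.44 to 1.75. The region before Mpo lost it without URE-LSK replicate 1 (1.37). Groups of 3 libraries are too small for a check of single far-off samples.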

How the results depend on the processing

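The counts of called regions (22 and 21 by genotype in LSK and GMP, 33 and 41 for the step in WT and URE, 10 for the interaction) were the same with a replicate block, which changed no call, and stayed within 1.5 times under all other scalings and DESeq2, as did the first 4 counts in the 2-group fits, which give no interaction. Restriction to a mean CPM of at least 2 left 13 in LSK and 8 in GMP, of 39 regions tested. Without a fold threshold 33 were called in GMP and 16 by the interaction, and with glmTreat, which tests against a log2 fold change of 1, 11 and 3. With each library left out in turn the counts were 20 to 23 in LSK, 17 to 21 in GMP, 30 to 33 and 40 to 42 for the steps and 6 to 12 for the interaction, the 6 without URE-LSK replicate 1. The GENCODE basic body of Prtn3 alone, an alternative added after seeing the data, changed no count by more than 1. No called region changed sign in any alternative. The median of all regions was 0.14 in LSK and 0.06 in GMP, and 0.28 and 0.21 with GC offsets.

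Signs turned at differences near 0, none of them called in its turned sign, and the cause was not tested. In LSK the Elane start (-0.20) gave 0.18 with GC offsets, also with the replicate block added. The Ms4a3 start in LSK (-0.14) gave 0.32, 0.31 with the block added, and -0.41 to 0.18 with single libraries left out. The Prtn3 start in GMP (-0.17) gave 0.0045 with block and GC offsets. Region chr10:79883042-79884866 in GMP (0.04) gave -0.071 with library size, -0.088 with promoter scaling, -0.11 with loess, -0.031 under the CPM filter and -0.017 to 0.12 with single libraries left out. Region chr11:87774559-87774895 in LSK (0.08) gave -0.033 with library size, -0.027 with GC offsets, -0.035 with block and GC, -0.089 with promoter scaling, 1.31 with loess offsets, where it was called, and -0.29 to 0.44 with single libraries left out. The WT step of chr11:87811464-87811848 gave 0.050 with DESeq2, 0.049 with RLE, 0.11 with loess, 0.068 with GC offsets, 0.062 with block and GC, 0.0095 under the CPM filter, 0.030 with 2 groups and -0.23 to 0.10 with single libraries left out. Region chr14:56082036-56082499 in LSK (-0.02) gave 0.025 with DESeq2, 0.026 with RLE, 0.13 with loess, 0.52 with GC offsets, 0.51 with block and GC, and -0.21 to 0.046 with single libraries left out. The interaction at the Gzme start (0.02) gave -0.011 with DESeq2, -0.021 with the block, -0.028 with block and GC, and -1.05 to 0.84 with single libraries left out. With single libraries left out the interaction of chr10:79858433-79858697 (-0.33) ran from -0.49 to 0.17 and that of chr11:87795574-87797727 (0.18) from -0.012 to 0.58.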
